A study of Mus musculus with 2 samples.

Results

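Collagen genes were taken as the mouse genes whose symbols join Col, a type number, the letter a and a chain number. Of 27998 mouse genes counted in both libraries, 44 had such a symbol, and they were followed across the cell classes of a mouse glioblastoma. By the protein they encode, 11 were fibrillar chains, 8 basement membrane chains, 9 fibril-associated (FACIT) chains and 16 other collagens, which included the beaded, short-chain, membrane-spanning and anchoring types. The choice used symbols alone and no measured value.

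Collagens are secreted proteins built from alpha chains that wind around each other. Fibrillar chains form the fibrils of skin, bone and cartilage, FACIT chains coat those fibrils, and collagen IV forms the sheet-like network of basement membranes. In the brain the main basement membrane lies around blood vessels, where endothelial cells, pericytes and smooth muscle cells contribute to it and astrocyte endfeet rest on its outer side, while fibrils are sparse outside the meninges and large vessels.

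Droplet-based single-cell RNA sequencing was done on 2 NPCTKO tumors from C57BL/6 mice aged 3 months, 1 library each. In this model, embryonic neural progenitors were electroporated in utero with Cas9, luciferase and guides against tumor suppressor genes, Trp53 and Nf1 among them, together with an EGFP cassette that marks their progeny, so both tumors were started with the same guides, and the alterations that each tumor carried were not examined here. No tumor-free brain was analysed here. The study describes a Tek-Cre;Ai14 host, whose Cre acts in endothelial and blood lineages, and a Tbx18CreERT2/+;Ai14 host, whose Cre acts in mural cells, with 1 tumor from each. The labels do not tie a host to a library, so host, animal, tumor and library cannot be told apart. A UMI of tdTomato, the Ai14 reporter, was seen in 46.5% and 0% of endothelial-like, 0% and 60% of mural-like and 18.9% and 0.864% of myeloid-like cells of tumor 1 and tumor 2, and no host was assigned from these values. Each class of a library comes from 1 animal.

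The deposited tables held 14302 and 18596 cell barcodes with 282961884 and 295366782 unique molecular identifiers (UMIs) in mouse genes for tumor 1 and tumor 2, and 11333 and 13124 cells passed the filters at median depths of 17984 and 13365 UMIs. The libraries shared 51 barcodes, which were 0.357% and 0.274% of their barcodes. Cells were put in classes by raw UMIs of marker genes, none of them a collagen. EGFP-high glioma cells, with glioma markers and EGFP at or above 20.1 and 24.4 UMIs per 10000, numbered 6558 and 4395. There were 739 and 58 astrocyte-like, 116 and 72 oligodendrocyte-like, 43 and 34 endothelial-like, 5 and 25 mural-like and 949 and 1852 myeloid-like cells. The T-cell-like cells, 255 and 505, served as a class in which collagen UMIs give the level of free RNA and stray calls. The 5 mural-like cells of tumor 1 held 19448 UMIs in all, at a median of 3887 per cell, so a gene with no UMI there could still stand at up to 1.54 per 10000, the level that 3 UMIs would give.

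The classes were gated on these same markers, so the marker sums describe the classes and give no separate check of them. The 11 endothelial markers, all detected, summed to 147 and 69.8 UMIs per 10000 in endothelial-like cells, against 0.109 and 0.134 in EGFP-high glioma. The mural markers summed to 323 and 154 in mural-like cells, with Acta2 and Myh11 at 0 in tumor 1. High EGFP was also found in 14.0% and 32.4% of endothelial-like cells and in 20% and 16% of mural-like cells. It was found in 54.3% and 38.9% of oligodendrocyte-like cells and in 69.6% and 72.4% of astrocyte-like cells. In astrocyte-like cells, the 7 glioma markers summed to 26.1 and 15 per 10000, close to the 25.2 and 16 of EGFP-high glioma.

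Levels are given as UMIs per 10000 UMIs of the class. A UMI is a tag from the 3′ end of 1 molecule, so no level was divided by gene length. Intervals are 95% Poisson intervals and cover counting error only.

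Collagen IV chains lie in head-to-head pairs, and their promoters are printed because the paired genes were followed together below. Promoter windows of RefSeq (GRCm38.p6) ran from 250 bases before to 50 bases after each start, and 35 of the 44 collagens had one. The Col4a1 window was chr8:11312777-11313076 on the minus strand and the Col4a2 window chr8:11312555-11312854 on the plus strand. Their starts lie 21 bases apart, and the capitals mark the 78 bases that both windows hold. GC content was 74.0% and 73.7%.
Col4a1: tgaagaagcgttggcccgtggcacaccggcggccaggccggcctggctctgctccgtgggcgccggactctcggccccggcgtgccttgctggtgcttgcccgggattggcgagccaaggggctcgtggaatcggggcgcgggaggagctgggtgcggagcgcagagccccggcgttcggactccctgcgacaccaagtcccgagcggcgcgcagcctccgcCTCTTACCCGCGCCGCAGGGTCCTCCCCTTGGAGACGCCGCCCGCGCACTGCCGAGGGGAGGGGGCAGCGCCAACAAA
Col4a2: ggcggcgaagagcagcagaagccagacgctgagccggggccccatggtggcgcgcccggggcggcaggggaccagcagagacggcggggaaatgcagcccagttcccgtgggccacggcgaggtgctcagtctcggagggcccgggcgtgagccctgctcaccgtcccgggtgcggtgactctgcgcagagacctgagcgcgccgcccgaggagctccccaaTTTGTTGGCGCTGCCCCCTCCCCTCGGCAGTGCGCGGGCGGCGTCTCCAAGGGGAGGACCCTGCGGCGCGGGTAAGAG

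The other pair shown is Col4a5, chrX:141475169-141475468 on the plus strand, and Col4a6, chrX:141474027-141474326 on the minus strand, whose starts lie 1343 bases apart. Here and in the next pair the capitals mark CCAAT or GGGCGG, the sequences known as the CCAAT box and the GC box, searched on both strands.
Col4a5: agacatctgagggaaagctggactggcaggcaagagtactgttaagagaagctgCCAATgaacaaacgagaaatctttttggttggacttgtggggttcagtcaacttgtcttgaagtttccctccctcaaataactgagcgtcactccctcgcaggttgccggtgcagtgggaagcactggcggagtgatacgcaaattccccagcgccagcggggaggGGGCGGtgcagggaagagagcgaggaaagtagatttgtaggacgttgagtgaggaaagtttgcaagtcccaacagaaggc
Col4a6: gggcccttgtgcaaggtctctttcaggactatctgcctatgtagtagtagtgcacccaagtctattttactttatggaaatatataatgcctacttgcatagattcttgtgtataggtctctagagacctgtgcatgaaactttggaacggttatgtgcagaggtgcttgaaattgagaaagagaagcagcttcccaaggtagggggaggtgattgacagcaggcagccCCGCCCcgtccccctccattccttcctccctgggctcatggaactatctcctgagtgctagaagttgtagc

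Col11a1, chr3:114030290-114030589, and Col11a2, chr17:34038888-34039187, both on the plus strand, encode the chains of collagen XI and are shown as the fibrillar pair that led in glioma cells.
Col11a1: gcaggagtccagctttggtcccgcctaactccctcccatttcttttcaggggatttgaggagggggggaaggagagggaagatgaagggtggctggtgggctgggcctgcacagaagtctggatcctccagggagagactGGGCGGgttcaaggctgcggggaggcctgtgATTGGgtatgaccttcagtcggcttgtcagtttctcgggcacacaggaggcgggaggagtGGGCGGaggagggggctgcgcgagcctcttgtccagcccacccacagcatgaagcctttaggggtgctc
Col11a2: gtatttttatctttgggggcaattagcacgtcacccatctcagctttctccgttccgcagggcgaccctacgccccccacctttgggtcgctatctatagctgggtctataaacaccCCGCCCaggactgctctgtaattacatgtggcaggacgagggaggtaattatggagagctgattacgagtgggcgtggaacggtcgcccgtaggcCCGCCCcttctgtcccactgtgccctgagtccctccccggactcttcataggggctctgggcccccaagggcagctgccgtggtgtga

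Among all 32851 promoter windows, 37.4% held CCAAT and 35.7% held GGGCGG. Among the 38 collagen windows, some genes having more than 1, 13 held CCAAT (34.2%) and 23 held GGGCGG (60.5%). TATAAA was in 13.6% of all windows and in 5 collagen windows, and ACAAAG, the core of Sox sites, was in 18.7% and in 5. These are matches of letters, and no binding was measured.

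Among the 6 classes compared, collagen UMIs were most dense in vascular cells. All collagens together summed to 31.9 (24.4 to 40.9) and 62.1 (59.6 to 64.7) UMIs per 10000 in mural-like cells of tumor 1 and tumor 2, and to 18.7 and 14.2 in endothelial-like cells. EGFP-high glioma stood at 10.4 in tumor 1 and 10.5 in tumor 2. Astrocyte-like cells stood at 4.43 and 4.59, oligodendrocyte-like cells at 4.51 and 6.13, and myeloid-like cells at 2.92 and 1.36. T-cell-like cells held 0.864 and 2.40, and in tumor 2 this was above the level of myeloid-like cells. Outside these classes, the 1 and 3 cells of the fibroblast gate stood at 140 and 43.5, and glioma-marker cells of low EGFP, described further on, at 2.32 and 18.5, which in tumor 2 is above endothelial-like cells. Thus mural-like, endothelial-like and EGFP-high glioma cells kept this order in both tumors, without overlap of their intervals within a tumor. The vascular sums include cells of high EGFP. Without these, 37 of 43 and 23 of 34 endothelial-like cells remained, and the order among the remaining cells was not tested.

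The makeup of the collagen UMIs differed between classes as well. Basement membrane chains made up 82.3% and 75.7% of the collagen UMIs of mural-like cells and 85.4% and 68.2% of those of endothelial-like cells, but 14.1% and 8.68% of those of EGFP-high glioma. In glioma cells, fibrillar chains gave 49.3% and 51.9% and FACIT chains 32.8% and 35.3%. FACIT chains stood at 3.40 and 3.71 per 10000 in EGFP-high glioma and at 0.721 and 1.32 in endothelial-like cells. These endothelial-like values include cells of high EGFP. In tumor 2, leaving those cells out took Col3a1 from 49 UMIs to 1, Col1a2 from 29 to 0 and Col20a1 from 35 to 0. There, Col4a1 went from 395 to 307 UMIs and Col9a3 from 31 to 23. At least 1 UMI was seen for 44 of 44 members in EGFP-high glioma of each tumor, a class with many cells, and for 26 and 30 members in endothelial-like and 9 and 31 in mural-like cells.

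**Figure D1:**
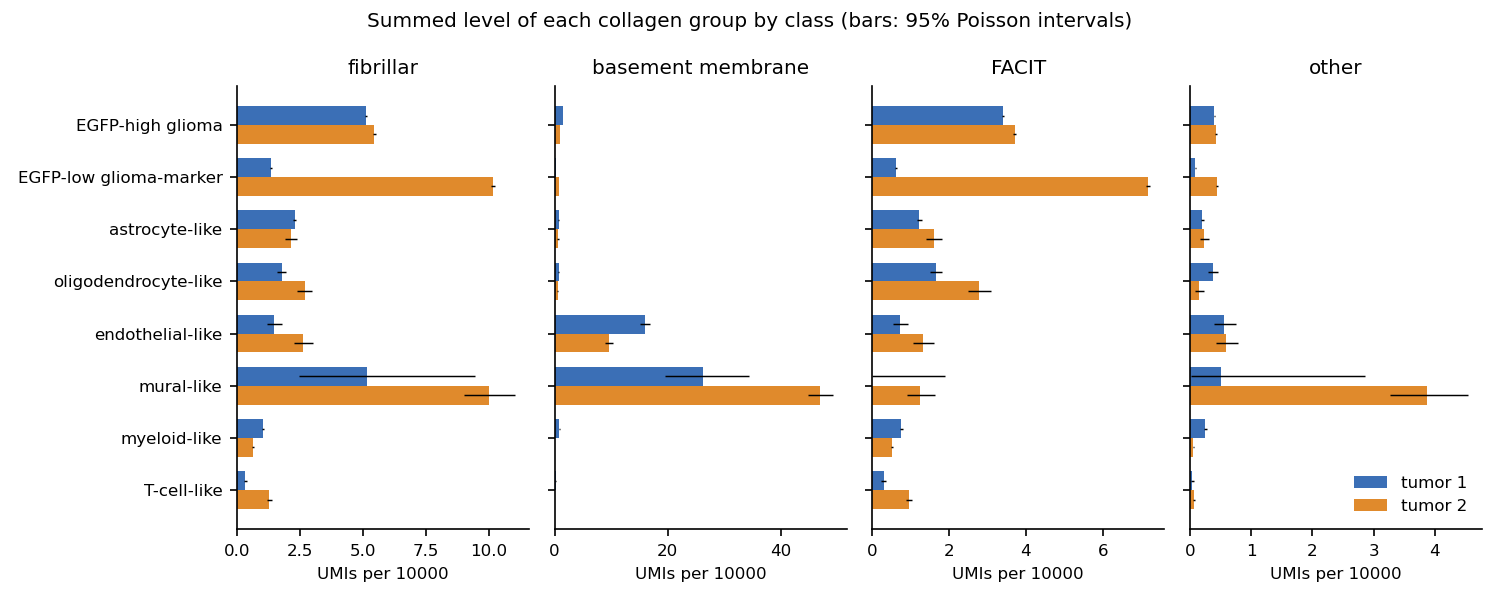
Summed UMIs per 10000 (x axis) of fibrillar, basement membrane, FACIT and other collagens in each class (y axis), with a bar for each tumor and lines for 95% Poisson intervals. Basement membrane collagens stood at 26.2 and 47.0 in mural-like and 16 and 9.69 in endothelial-like cells, against 1.46 and 0.912 in EGFP-high glioma. FACIT collagens were highest in EGFP-high glioma in tumor 1 (3.40) and in glioma-marker cells of low EGFP in tumor 2 (7.19). In tumor 1 those of low EGFP stood at 0.622.

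Among the 6 classes, 18 members had their highest level in the same class of both tumors. EGFP-high glioma was that class for 8 of them, Col2a1, Col6a4, Col9a1, Col9a2, Col9a3, Col11a1, Col11a2 and Col16a1. Mural-like cells were highest for Col1a2, Col3a1, Col4a1, Col5a2, Col5a3 and Col7a1, astrocyte-like cells for Col4a6, Col8a2 and Col23a1, and endothelial-like cells for Col28a1. The Col6a4 level was 0.000339 and 0.000355 per 10000, so its place rests on few UMIs. The same holds for Col8a2, at 0.000591 in the astrocyte-like cells of the tumor where it was lower. In mural-like cells of tumor 1, Col3a1, Col5a3 and Col7a1 had 1 UMI each and Col5a2 had 2. All Col28a1 UMIs of endothelial-like cells came from cells of high EGFP.

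The comparison of endothelial-like cells with EGFP-high glioma asks which collagens mark the lining of vessels against tumor cells. Col4a1, Col4a2 and Col4a3 of collagen IV were higher in endothelial-like cells, the other 3 collagen IV chains did not pass as higher, and chains of the cartilage-type collagens II, IX and XI were lower. Of 32 collagens tested, 4 were higher, where 13.7% of all 14006 genes tested were higher, and 6 were lower, where 12.9% of all genes were lower (edgeR quasi-likelihood test, adjusted p under 0.05). The count of higher members was near the share over all genes. Without the endothelial-like cells of high EGFP, 3 were higher and 10 lower. By group, 3 of 8 basement membrane chains were higher, while 3 of 10 fibrillar and 3 of 7 FACIT chains were lower. The median log2 fold change was 0.19 over the collagens and −0.21 over all genes.

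Col4a1 (ENSMUSG00000031502, chromosome 8, 11198423 to 11312826, minus strand) encodes 1 of the 2 chains of the ubiquitous collagen IV. It stood at 8.97 (8.29 to 9.69) and 5.26 (4.75 to 5.80) UMIs per 10000 in endothelial-like cells, against 0.628 and 0.407 in EGFP-high glioma. Both endothelial-like values lay above those of the glioma, astrocyte-like, oligodendrocyte-like, myeloid-like and T-cell-like classes, where the highest was 0.628. The fold change on the log2 scale was 3.89 (SE 0.54, edgeR adjusted p = 0.00046). Col4a2 (ENSMUSG00000031503, chromosome 8, 11312805 to 11449287, plus strand) encodes its partner chain and stood at 6.31 and 3.78 in endothelial-like cells against 0.188 and 0.113, a log2 fold change of 5.20 (SE 0.45, edgeR adjusted p = 1.87e-05). The ends of the genes where transcription starts overlap on opposite strands, and the tags lie at the other ends.

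At least 1 Col4a1 UMI was found in 90.7% and 94.1% of endothelial-like cells (median depth 13532 and 17175.5 UMIs), and the shares in T-cell-like cells (10207 and 8852 UMIs) were 5.88% and 3.76%. Thinned to 2000 UMIs per cell, the shares were 60.0% and 61.8% against 1.57% and 1.39%, which left out 3 endothelial-like cells and 1 T-cell-like cell of tumor 1. In EGFP-high glioma, 36.3% and 21.3% of cells held a Col4a1 UMI, or 7.93% and 6.09% after thinning, with 91 and 158 cells left out, so the glioma level was also above that of T-cell-like cells. Without the endothelial-like cells of high EGFP, Col4a1 stood at 8.53 and 5.68 per 10000.

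The other 2 members that were higher rested on few UMIs. Col4a3, a chain of the kidney and lung basement membrane, had 9 UMIs (0.125 per 10000, 0.0571 to 0.237) and 2 UMIs (0.0266, 0.00322 to 0.0961) in endothelial-like cells, against 0.00115 and 0.00485 in EGFP-high glioma, with a log2 fold change of 5.05 (SE 1.21, edgeR adjusted p = 0.0129) that was 6.62 in tumor 1 alone and 2.56 in tumor 2 alone. Col28a1, a collagen of peripheral nerve, had 10 and 19 UMIs in endothelial-like cells, 0.139 and 0.253 per 10000, against 0.0322 and 0.0374, a log2 fold change of 2.65 (SE 0.87, edgeR adjusted p = 0.0455). All 10 and 19 came from the 6 and 11 endothelial-like cells of high EGFP, and without these cells Col28a1 had 0 UMIs in both tumors and was no longer called (edgeR adjusted p = 0.201).

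The lower members were chains of cartilage collagens. Col9a1, a chain of the FACIT collagen IX, stood at 0.978 and 0.635 in EGFP-high glioma against 2 and 3 UMIs, 0.0277 (0.00336 to 0.1) and 0.0399 (0.00823 to 0.117) per 10000, in endothelial-like cells, a log2 fold change of −4.46 (SE 0.49, edgeR adjusted p = 9.97e-05), which was −2.63 without doublet removal. Col2a1 (ENSMUSG00000022483, chromosome 15, 97975602 to 98004695, minus strand), the chain of cartilage fibrils, stood at 0.477 and 1.19 in glioma against 0 and 0.0931, and the 0 of 721223 UMIs in tumor 1 makes it at least 11.5-fold lower there. Its fitted fold change on the log2 scale was −4.34 (SE 0.82, edgeR adjusted p = 0.00292). Without doublet removal it was −3.40. Both endothelial-like values of Col2a1 lay below those of EGFP-high glioma in the same tumor.

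Col11a1 (ENSMUSG00000027966, chromosome 3, 114030540 to 114220718, plus strand), a chain of collagen XI that nucleates fibrils, had the most UMIs of any collagen in EGFP-high glioma, at 2.89 and 2.29 per 10000, and stood at 0.499 and 0.279 in endothelial-like cells (−2.61 on the log2 scale, SE 0.65, edgeR adjusted p = 0.013). Col9a3 (ENSMUSG00000027570, chromosome 2, 180597790 to 180622189, plus strand), the partner of Col9a1, stood at 1.17 and 2.05 against 0.139 and 0.413 (−2.60, SE 0.56, edgeR adjusted p = 0.00594). Col11a2, the second chain of collagen XI, stood at 0.617 and 0.752 against 0.139 and 0.0798 (−2.52, SE 0.45, edgeR adjusted p = 0.00222). Col9a2 stood at 0.146 and 0.115 against 0 and 0.0266, with 2 UMIs in tumor 2 and at least 3.5-fold lower in tumor 1 (fitted change on the log2 scale −3.15, SE 0.96, edgeR adjusted p = 0.0334), and its call was lost without the endothelial-like cells of high EGFP (edgeR adjusted p = 0.0749). Without doublet removal the change was −1.78 for Col11a1 and −1.81 for Col9a3, both still past the threshold.

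In mural-like cells, collagen IV was again the leading product, and fibrillar collagens of connective tissue were higher as well. Of 31 collagens tested against EGFP-high glioma, 12 were higher, where 6.99% of all 13243 genes tested were higher, and 5 were lower, where 4.73% were lower (edgeR adjusted p under 0.05). The median log2 fold change was 2.47 over the collagens and −0.36 over all genes. The higher ones were 5 of 10 fibrillar, 4 of 7 basement membrane and 3 of 7 other collagens, and the lower ones were Col2a1, Col9a1, Col9a3, Col11a1 and Col11a2. Since 1 of the classes held 5 cells in tumor 1, this fit and the next were made with a lower minimum of cells, a choice added after the cells had been counted.

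Col4a1 stood at 19.5 (13.8 to 26.8) and 31.9 (30.1 to 33.7) UMIs per 10000 in mural-like cells, above the endothelial-like level in each tumor, and every mural-like cell held at least 1 UMI of it. Its log2 fold change over glioma was 5.76 (SE 0.74, edgeR adjusted p = 0.000133). Col4a2 stood at 4.63 (2.12 to 8.78) and 11.0 (10.0 to 12.2), with a log2 fold change of 6.03 (SE 0.66, edgeR adjusted p = 3.42e-05). In tumor 1 its interval included the endothelial-like level of 6.31, and in tumor 2 it lay above the 3.78 there. In tumor 1 alone and tumor 2 alone, the log2 fold change over glioma was 4.25 and 6.44 for Col4a1 and 3.92 and 6.75 for Col4a2.

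Col7a1, which anchors epithelium to the tissue beneath it, had 1 UMI (0.514 per 10000, 0.013 to 2.86) and 12 UMIs (0.316, 0.163 to 0.551) in mural-like cells against 0.00577 and 0.0032 in glioma, a log2 fold change of 6.65 (SE 0.88, edgeR adjusted p = 0.000182). Col3a1, the reticular fibril chain of vessel walls, had 1 UMI (0.514, 0.013 to 2.86) and 119 UMIs (3.13, 2.59 to 3.74) against 0.0771 and 0.143, a log2 fold change of 4.35 (SE 0.87, edgeR adjusted p = 0.0044). Col1a2, a chain of collagen I, stood at 3.09 (6 UMIs) and 0.947 against 0.0467 and 0.142 (3.57, SE 0.86, edgeR adjusted p = 0.014). These 3 were higher in mural-like cells of both tumors, with 1 UMI behind the first 2 in tumor 1. In tumor 1 alone and tumor 2 alone the log2 fold change was 5.71 and 6.68 for Col7a1, 2.03 and 4.59 for Col3a1 and 5.33 and 2.88 for Col1a2.

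Col5a2, a chain of the collagen V that regulates fibril width, stood at 1.03 (2 UMIs, 0.125 to 3.71) and 2.08 in mural-like cells against 0.295 and 0.224 in glioma (3.19 on the log2 scale, SE 0.82, edgeR adjusted p = 0.0215). Its relative Col5a3 stood at 0.514 (1 UMI, 0.013 to 2.86) and 1.71 against 0.202 and 0.331 (2.47, SE 0.70, edgeR adjusted p = 0.0329). In tumor 1 alone and tumor 2 alone the log2 fold change was 1.1 and 3.36 for Col5a2 and 0.64 and 2.52 for Col5a3. The other 5 higher members had no UMI in the mural-like cells of tumor 1, so their calls rest on tumor 2. There, Col18a1, the source of endostatin, stood at 3.13, Col6a3 of the beaded filaments at 2.18, Col15a1 of the vascular basement membrane at 0.841, Col5a1 at 0.684 and Col8a1 of subendothelial matrix at 0.552. Col1a1, the other chain of collagen I, had 0 and 30 UMIs and did not pass (edgeR adjusted p = 0.0855).

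Markers of fibroblasts, which also make fibrillar collagens, were checked in the same cells. The 10 fibroblast markers summed to 1.54 UMIs per 10000 in mural-like cells of tumor 1, with 7 of them at 0, and to 0.762 in tumor 2, with Aldh1a2, Dpt, Pi16 and Mfap5 at 0. In EGFP-high glioma they summed to 0.406 and 0.374, and their part in the fibrillar levels was not tested. Only 1 and 3 cells passed the fibroblast gate, with Col1a1 at 18.1 and 8.15 and Col3a1 at 27.1 and 3.21 per 10000.

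For the lower members in mural-like cells, tumor 1 had no UMI of any of the 5. The level that 3 UMIs would give there, 1.54 per 10000, is above glioma of tumor 1 for Col2a1 (0.477), Col9a1 (0.978), Col9a3 (1.17) and Col11a2 (0.617). So for these, the 0 does not show a lower level, and their calls rest on tumor 2. The Col11a1 level was at least 1.87-fold below glioma in tumor 1 and 0.131 (5 UMIs) in tumor 2 (fitted change on the log2 scale −4.47, SE 1.00, edgeR adjusted p = 0.00947). In tumor 2, Col2a1 had 3 UMIs (0.0789 per 10000, 0.0163 to 0.231), Col11a2 had 2, Col9a3 had 9 and Col9a1 had 5, and each level lay below that of EGFP-high glioma. The fitted log2 fold changes were −4.29 (SE 1.03) for Col2a1, −3.97 (SE 0.79) for Col11a2, −3.45 (SE 0.77) for Col9a3 and −2.70 (SE 0.60) for Col9a1.

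Mural-like cells were also set against endothelial-like cells, the other cell type of the vessel wall. Of 31 collagens tested, 3 were higher in mural-like cells, where 2.33% of all genes tested were higher, and 0 were lower, where 2.42% were lower (edgeR adjusted p under 0.05). At an unadjusted p under 0.05, 14 were higher and 0 lower, and DESeq2 called 4 higher and 0 lower. Col7a1 had 1 and 12 UMIs against 2 and 1 in endothelial-like cells, a log2 fold change of 4.39 (SE 1.06, edgeR adjusted p = 0.0277). Col6a3 (4.22, SE 0.82, edgeR adjusted p = 0.0077) and Col15a1 (4.94, SE 1.09, edgeR adjusted p = 0.0169) had 83 and 32 UMIs in mural-like cells of tumor 2 and none in tumor 1. Col4a1 did not pass, at a log2 fold change of 1.86 (SE 0.64, edgeR adjusted p = 0.138), nor did Col4a2 (0.83, SE 0.56, edgeR adjusted p = 0.53).

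**Figure D2:**
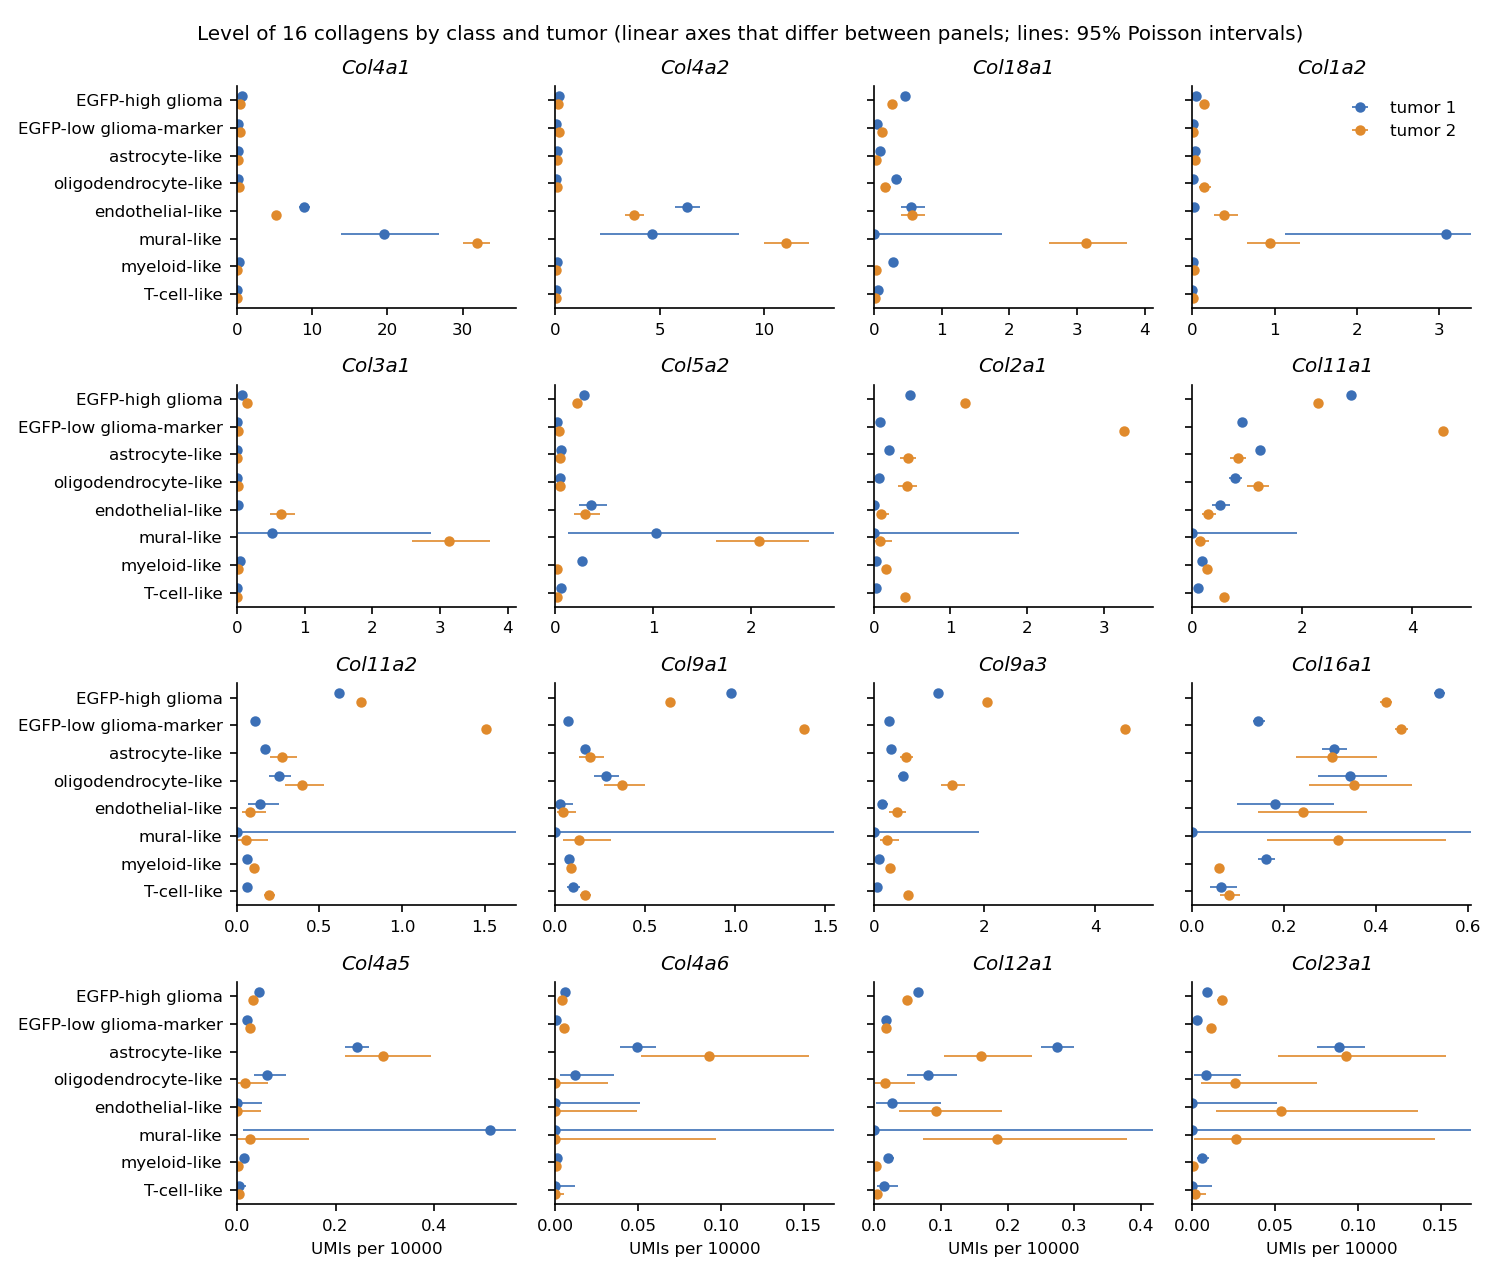
UMIs per 10000 (x axis, linear, with a range of its own in each panel) of 16 collagens in each class (y axis), with a point for each tumor and lines for 95% Poisson intervals, which run past the panel edge for mural-like cells of tumor 1 in some panels. Col4a1 and Col4a2 stood out in mural-like and endothelial-like cells, Col2a1, Col9a1, Col9a3, Col11a1 and Col11a2 in glioma-marker cells, and Col4a6 and Col23a1 in astrocyte-like cells.

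Col4a5, Col4a6 and Col23a1 were higher in astrocyte-like cells than in EGFP-high glioma, and 6 members, Col9a1 and Col9a3 among them, were lower. Of 32 collagens tested against EGFP-high glioma, 3 were higher, where 6.41% of all genes tested were higher, and 6 were lower, where 4.55% were lower (edgeR adjusted p under 0.05). The median log2 fold change was −1.26 over the collagens and −0.04 over all genes. Col4a5 and Col4a6, the chains of a distinct collagen IV network, stood at 0.243 and 0.297 and at 0.0491 and 0.0928 UMIs per 10000 in astrocyte-like cells, against 0.0456 and 0.0322 and 0.00549 and 0.00403 in EGFP-high glioma. Their log2 fold changes were 2.89 (SE 0.55, edgeR adjusted p = 0.00971) and 3.86 (SE 0.72, edgeR adjusted p = 0.0107). Neither chain had a UMI in the endothelial-like cells of either tumor, and Col4a5 had 1 UMI in the mural-like cells of each, which is 0.514 and 0.0263 per 10000. These are the genes whose promoter windows were printed above as the second pair.

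Col23a1, a membrane-spanning collagen, was the third, at 0.0887 and 0.0928 against 0.00895 and 0.0176 (2.91 on the log2 scale, SE 0.81, edgeR adjusted p = 0.0424), and lost its call with 1 more marker in every gate (edgeR adjusted p = 0.0546). Col12a1, a FACIT collagen of dense connective tissue, stood at 0.274 and 0.161 against 0.0666 and 0.0488 and did not pass (edgeR adjusted p = 0.0685). Col14a1, another FACIT collagen, had 2 UMIs in the astrocyte-like cells of tumor 1 and 37 in those of tumor 2, at 0.00118 and 0.229 per 10000, so the tumors differed.

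Of the 6 lower members, Col9a1 stood at 0.165 and 0.192 in astrocyte-like cells against 0.978 and 0.635 (−2.13 on the log2 scale, SE 0.31, edgeR adjusted p = 0.00189). Col9a3 stood at 0.305 and 0.582 (−1.80, SE 0.46) and Col11a2 at 0.173 and 0.272 (−1.59, SE 0.34). Col18a1 stood at 0.0899 and 0.0248 against 0.457 and 0.273 (−2.74, SE 0.71). Col6a3 had 8 and 0 UMIs, at least 4.13-fold lower in tumor 2 (fitted change on the log2 scale −3.41, SE 0.80), and Col20a1, a FACIT collagen, stood at 0.0999 and 0.0619 against 0.477 and 0.404 (−2.39, SE 0.69, edgeR adjusted p = 0.0493). The last call was lost with other size factors, with a stricter gate and with a lower mitochondrial limit, at edgeR adjusted p from 0.0575 to 0.0822.

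In oligodendrocyte-like cells, Col9a1 and Col2a1 were lower than in EGFP-high glioma. Of 32 collagens tested, 0 were higher, where 8.76% of all genes tested were higher, and 2 were lower, where 6.89% were lower (edgeR adjusted p under 0.05), so the lower count was near the share over all genes. At an unadjusted p under 0.05, 1 was higher and 9 were lower, and DESeq2 called 0 higher and 2 lower. Col9a1 stood at 0.278 and 0.369 UMIs per 10000 (−1.23 on the log2 scale, SE 0.31, edgeR adjusted p = 0.0215). Col2a1 stood at 0.0645 and 0.430 (−2.05, SE 0.56, edgeR adjusted p = 0.0315), and without doublet removal it was no longer called (edgeR adjusted p = 0.318). Col9a3 stood at 0.524 and 1.42, below EGFP-high glioma in both tumors.

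The comparison with myeloid-like cells asks which collagens separate tumor cells from the macrophages and microglia among them. Of 32 collagens tested, 10 were higher in EGFP-high glioma, where 24.4% of all genes tested were higher, and 0 were lower, where 25% were lower (edgeR adjusted p under 0.05). At an unadjusted p under 0.05, 13 were higher and 0 lower, and DESeq2 called 11 higher and 0 lower. FACIT chains supplied 5 of the 10, fibrillar chains 3, and basement membrane and other collagens 1 each. The median log2 fold change was 1.15 over the collagens and 0.04 over all genes.

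Col11a1 stood at 0.173 and 0.263 UMIs per 10000 in myeloid-like cells, and its log2 fold change in glioma was 2.78 (SE 0.59, edgeR adjusted p = 0.00247). Col2a1 stood at 0.0266 and 0.159 (2.71, SE 0.52, edgeR adjusted p = 0.00147), Col9a1 at 0.0755 and 0.0842 (2.52, SE 0.30, edgeR adjusted p = 5.85e-05) and Col9a3 at 0.0960 and 0.298 (2.40, SE 0.47, edgeR adjusted p = 0.00155). For Col2a1, Col9a3 and Col11a1, the myeloid-like level of tumor 2 was above that of tumor 1, and so was the T-cell-like level. Col11a2 (2.25, SE 0.34), Col9a2 (2.10, SE 0.51) and Col16a1 (1.35, SE 0.36), a FACIT collagen at 0.537 and 0.421 in EGFP-high glioma, were higher too. Without doublet removal all 7 stayed past the threshold, with log2 fold changes of 1.63 for Col11a1, 1.49 for Col2a1, 1.58 for Col9a1, 1.49 for Col9a3, 1.39 for Col11a2 and 1.45 for Col9a2.

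The remaining 3 were low, and each lost its call without doublet removal or with 1 more marker in every gate. The fit without the replicate block, given further on, also took the calls of some of the other members. Col8a1 stood at 0.0147 and 0.0296 in EGFP-high glioma against 0.00278 and 0.00148 (2.67, SE 0.91, edgeR adjusted p = 0.0331), Col12a1 at 0.0666 and 0.0488 against 0.0217 and 0.00266 (1.78, SE 0.63, edgeR adjusted p = 0.0361) and Col4a5 at 0.0456 and 0.0322 against 0.0139 and 0.00236 (1.66, SE 0.58, edgeR adjusted p = 0.038). Without doublet removal, Col8a1 (edgeR adjusted p = 0.108) and Col4a5 (edgeR adjusted p = 0.0757) lost their calls, and Col12a1 lost it with 1 more marker in every gate (edgeR adjusted p = 0.0753). In tumor 1 alone and tumor 2 alone the log2 fold change was 1.53 and 3.39 for Col8a1, 0.79 and 3.30 for Col12a1 and 0.88 and 2.87 for Col4a5.

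**Figure D3:**
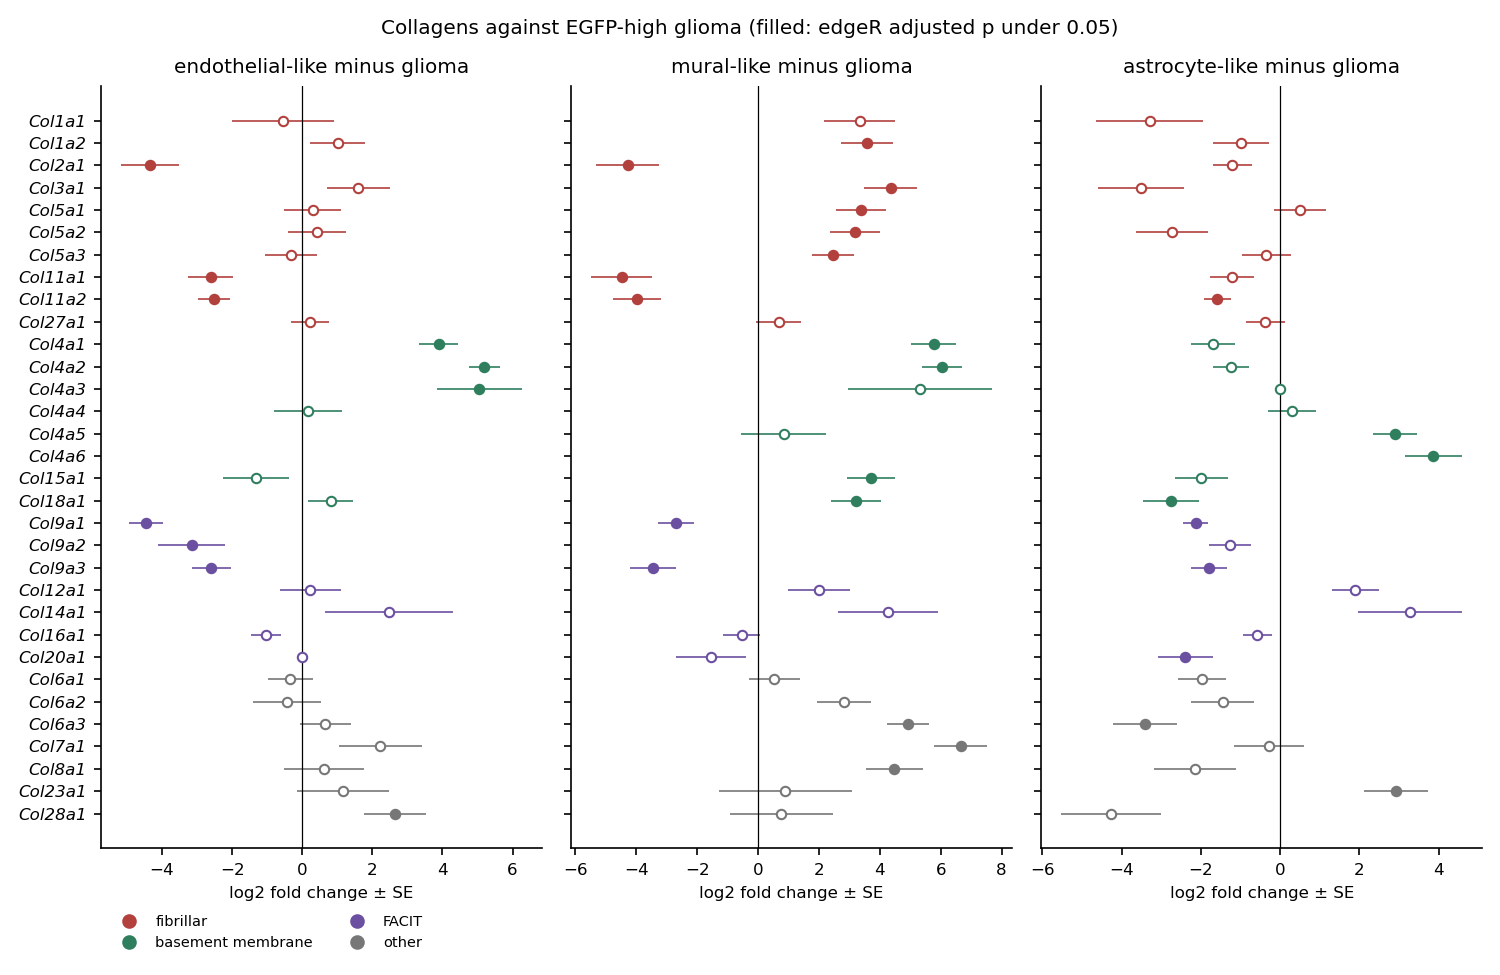
Log2 fold change with its SE (x axis) of the collagens tested (y axis) in endothelial-like, mural-like and astrocyte-like cells against EGFP-high glioma, colored by group, filled where the edgeR adjusted p was under 0.05 and left out where a class had no UMI in either tumor. Col4a1 and Col4a2 lie at 3.89 and 5.20 in endothelial-like and 5.76 and 6.03 in mural-like cells, while Col2a1, Col9a1, Col9a3, Col11a1 and Col11a2 lie left of 0 in all 3 panels.

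Col2a1, Col9a1, Col9a3, Col11a1 and Col11a2 are chains of the collagens of cartilage and the vitreous. Their shares of cells with a UMI were above those of T-cell-like cells in both tumors. Col11a1 was found in 79.6% and 68.1% of EGFP-high glioma cells against 9.02% and 29.3% of T-cell-like cells, and after thinning to 2000 UMIs in 32.6% and 28.1% against 1.97% and 8.51%. Col9a3 was found in 55.3% and 61.9% against 3.92% and 32.3%, and after thinning in 17.3% and 24.4% against 0.394% and 7.52%. Col2a1 was found in 22.2% and 36.1% against 3.14% and 16.2%, and after thinning in 5.33% and 12.2% against 0.394% and 3.17%. In endothelial-like cells the thinned share of Col11a1 was 5% and 8.82%, near that of T-cell-like cells in tumor 2.

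Their UMIs were unevenly spread over cells. The tenth of EGFP-high glioma cells with the most Col2a1 UMIs held 86.4% and 81.0% of them, and single cells reached 218 and 156 UMIs. The same share was 56.1% and 61.4% for Col9a3, 51.7% and 58.3% for Col11a1 and 76.3% and 85.0% for Col4a1. Col11a1 thus had the lowest share of these 4 in both tumors. It also had the most UMIs of them, 42574 and 19317, and the share was not adjusted for the number of UMIs. So these shares do not rank the genes by evenness.

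EGFP-high glioma cells were then split by raw markers, into 1694 and 950 dividing cells, 2145 and 757 cells with Gpr17, a marker of committed oligodendrocyte precursors, 859 and 283 with Sox9, an astrocyte and stem cell factor, 50 and 1608 with Wfdc12, and 1854 and 1397 others. Of these, 40 and 453 cells with Gpr17 and 4 and 147 with Sox9 also counted among those with Wfdc12. Col9a3 stood at 1.67 and 3.27 UMIs per 10000 in Gpr17 cells, at 0.472 and 2.00 in Sox9 cells and at 1.02 and 0.711 in the others. Col11a1 stood at 3.57 and 3.12 in Gpr17 cells, 1.58 and 2.53 in Sox9 cells and 2.88 and 1.89 in dividing cells. Gpr17 cells thus led Sox9 cells for both genes in each tumor. For Col2a1 the order turned, with 0.636 and 1.29 in Gpr17 cells and 0.222 and 1.52 in Sox9 cells. Cells with Wfdc12 were left in both subsets, and their part in these orders was not tested.

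Collagen IV lay elsewhere among glioma cells. Col4a1 stood at 1.35 and 0.784 UMIs per 10000 in the others, against 0.481 and 0.195 in Gpr17 cells and 0.501 and 0.254 in dividing cells. Col18a1 was likewise highest in the others, at 0.993 and 0.467, as was Col5a2, at 0.892 and 0.563. Their median depth of 13475 and 10479 UMIs was the lowest of the 5 subsets, against 20008 and 19243 in Gpr17 cells, and its part in these levels was not tested.

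Cells with glioma markers but EGFP below the limit formed a class added after the data had been seen, with 1712 cells in tumor 1 and 2638 in tumor 2. In this class the tumors went opposite ways. All collagens summed to 2.32 per 10000 in tumor 1, below the 10.4 of EGFP-high glioma, and to 18.5 in tumor 2, above the 10.5 there. Col2a1 stood at 0.0851 (0.0757 to 0.0954) and 3.27 (3.23 to 3.31), Col9a3 at 0.265 and 4.54, Col11a1 at 0.905 and 4.56 and Col9a1 at 0.0671 and 1.38. EGFP itself stood at 12.5 and 13.3 per 10000 in these cells and at 10.9 and 7.97 in T-cell-like cells.

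For a finer view, all glioma-marker cells of a tumor were ranked by EGFP and cut into 5 bins. The bins held 1654 cells in tumor 1 and 1406 or 1407 in tumor 2. They re-cut the same cells on the same measure, so they give no separate check of the opposite directions. From the lowest to the highest bin, Col2a1 went from 0.0827 through 0.125, 0.237 and 0.455 to 1.04 UMIs per 10000 in tumor 1. In tumor 2 it went from 3.37 through 3.13, 2.41 and 0.526 to 0.240. Col11a1 went from 0.897 to 5.55 in tumor 1 and from 4.60 to 0.756 in tumor 2, and Col9a3 from 0.267 to 2.23 and from 4.72 to 0.796. Col4a1 had its highest value in bin 4 of both tumors, at 0.880 and 0.535.

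Genes of cell state moved with these bins, and in tumor 2 depth did so too. Median UMIs per cell of the bins lay between 19031 and 19871 in tumor 1 and between 12474.5 and 31471 in tumor 2, where the lowest bin was the deepest. Wfdc12 went from 8.23 in the lowest to 0.718 in the highest bin of tumor 2 and stayed at or below 0.0439 in tumor 1. Mgp, a cartilage and vessel matrix protein, went from 0.240 to 2.46 in tumor 1 and from 6.63 to 0.324 in tumor 2. Sox9 went from 3.65 in the lowest bin to 0.899 in bin 4 and 1.47 in the highest in tumor 1 and from 0.2 to 0.434 in tumor 2, and Olig2, a factor of the oligodendrocyte lineage, from 3.59 to 2.54 and from 0.934 to 1.77. The part of depth and of these genes in the collagen levels was not tested, and with 1 library per tumor the difference between tumors has no replicate check.

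**Figure D4:**
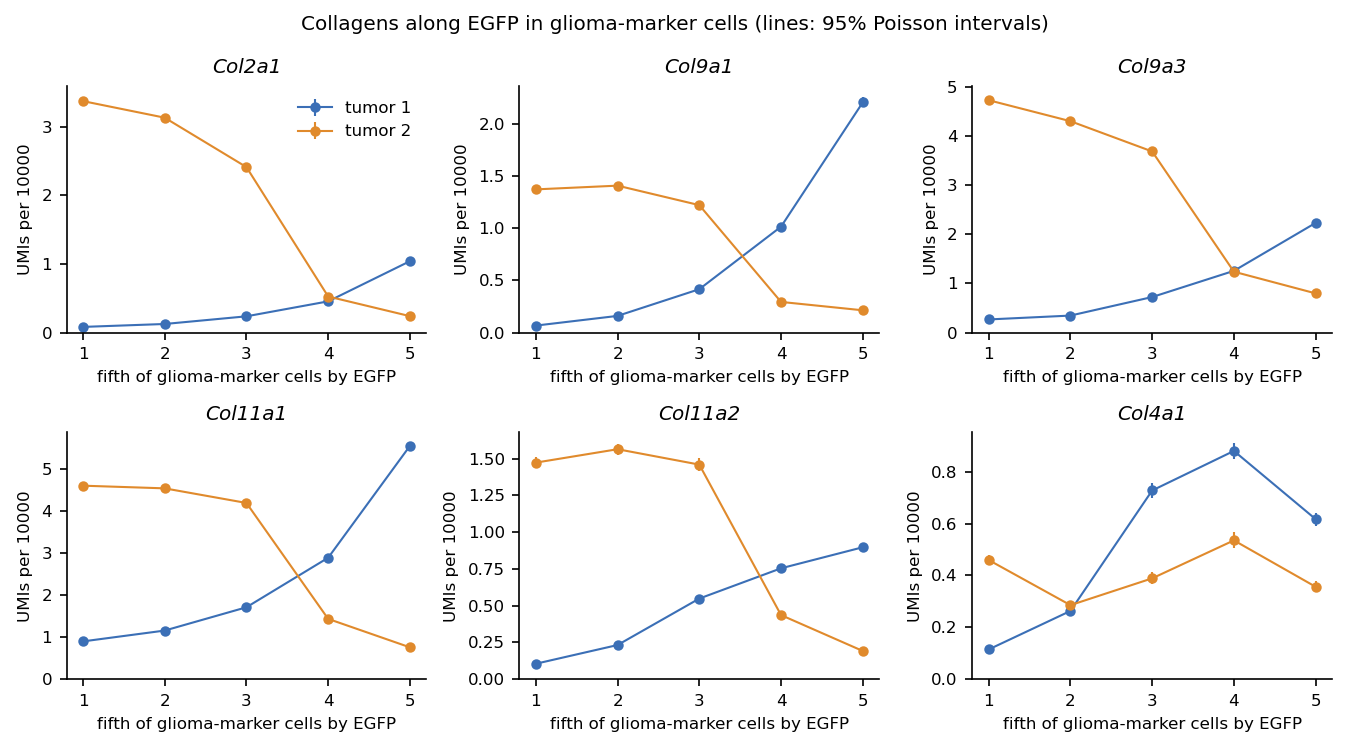
UMIs per 10000 (y axis) of 6 collagens in 5 bins of the glioma-marker cells ranked by EGFP (x axis, 1 is the lowest), with a line for each tumor and bars for 95% Poisson intervals. The cartilage-type chains climb with EGFP in tumor 1, Col2a1 from 0.0827 to 1.04, and drop in tumor 2, from 3.37 to 0.240, while Col4a1 peaks in bin 4 of both.

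Between the tumors, most collagens of EGFP-high glioma stood within 4-fold of each other. With 1 library each there is no test. Of 38 collagens with at least 50 UMIs over both tumors, 1 was more than 4-fold higher in tumor 2, where 1.92% of 15514 genes were, and 1 was more than 4-fold higher in tumor 1, where 3.35% were. Col4a3 was 4.21-fold higher in tumor 2 (95% counting interval 2.34 to 7.90, 17 against 41 UMIs). Col25a1, a membrane collagen found in amyloid plaques, was 4.17-fold higher in tumor 1 (102 against 14 UMIs). Both intervals reach well below 4.

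Among the abundant members, Col2a1 was 2.49-fold (2.41 to 2.56), Col1a2 3.04-fold (2.77 to 3.35) and Col9a3 1.76-fold (1.72 to 1.80) higher in tumor 2. In the other direction, Col15a1 was 2.18-fold, Col18a1 1.67-fold, Col4a1 1.54-fold and Col9a1 1.54-fold higher in tumor 1. So Col9a1 and Col9a3, chains of the same collagen, stood on opposite sides in EGFP-high cells. Glioma-marker cells of low EGFP are left out of this comparison, and in them both were higher in tumor 2. There Col9a1 stood at 0.0671 and 1.38 UMIs per 10000 in tumor 1 and tumor 2, Col9a3 at 0.265 and 4.54 and Col2a1 at 0.0851 and 3.27. The median log2 ratio of tumor 2 to tumor 1 was −0.34 over the collagens and −0.37 over all genes.

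**Figure D5:**
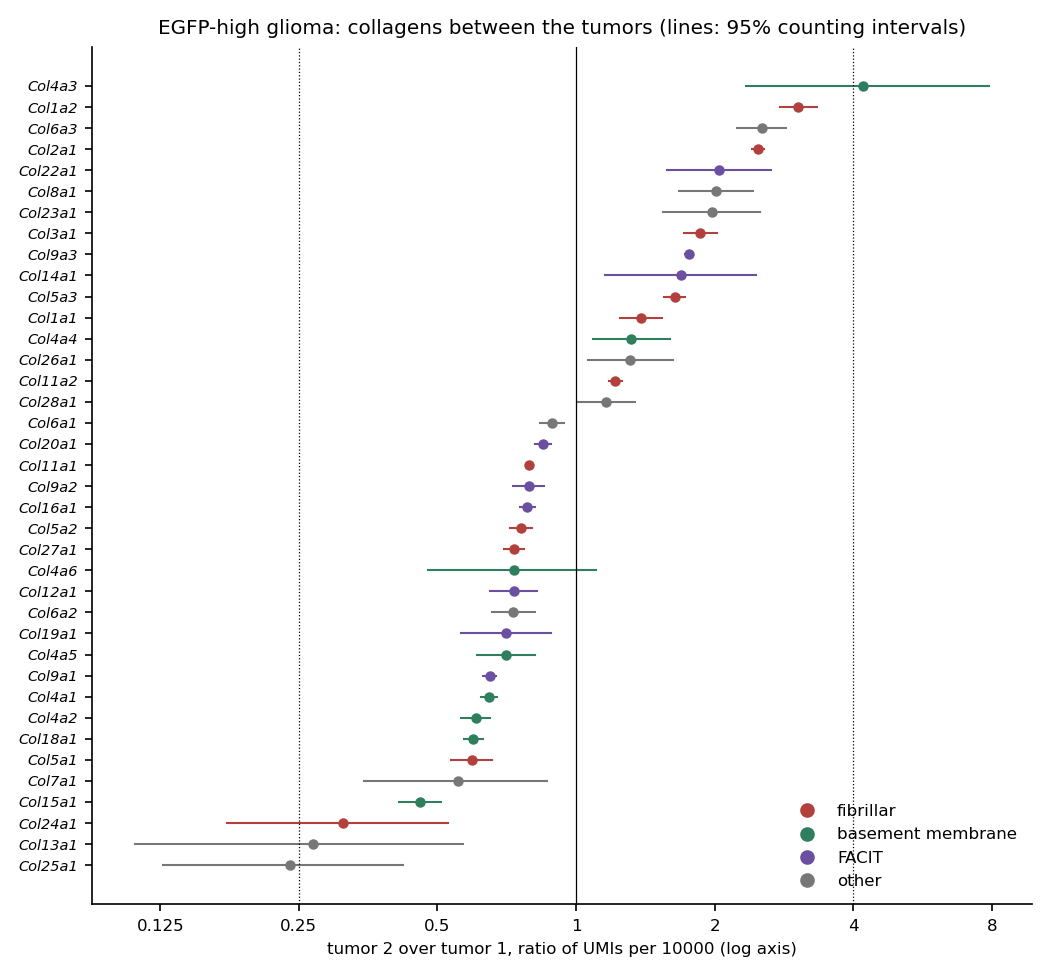
Ratio of UMIs per 10000 in EGFP-high glioma of tumor 2 to tumor 1 (x axis, log scale) for 38 collagens (y axis), colored by group, with lines for 95% counting intervals and dotted lines at 4-fold either way. Col4a3 at 4.21 and Col25a1, 4.17-fold the other way, lie past the dotted lines, and the rest lie between them.

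Genes that act with collagens were followed as lists. Laminins, nidogens and the proteoglycans that join collagen IV in basement membranes went with it. Of 13 tested in endothelial-like cells against EGFP-high glioma, 10 were higher, where 13.7% of all genes were, with a median log2 fold change of 2.49 against −0.21 over all genes. Nid1, a linker of laminin and collagen IV, stood at 2.83 and 0.918 UMIs per 10000 against 0.141 and 0.0952 (3.94, SE 0.60, edgeR adjusted p = 0.000781). Lamb1 stood at 1.07 and 0.625 against 0.0612 and 0.0566 (3.89, SE 0.52), Lama5 at 0.402 and 0.0665 against 0.0146 and 0.0124 (3.86, SE 0.90) and Lamb2 at 0.776 and 0.426 against 0.0625 and 0.0503 (3.49, SE 0.62), all laminin chains.

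In mural-like cells, 12 of 14 of these partners were higher than in glioma, where 6.99% of all genes were, with a median log2 fold change of 3.72. Lamb1 stood at 4.11 and 2.81 (5.78, SE 0.52), Lama2 at 4.11 and 0.868 (5.76, SE 0.80) and Nid1 at 7.20 and 4.92 (5.65, SE 0.63). Lamc3, a laminin chain, had 3 and 31 UMIs in mural-like cells and 5 and 1 in EGFP-high glioma. Against endothelial-like cells, 3 of 14 were higher in mural-like cells, where 2.33% of all genes were, Lama2 (6.01, SE 1.05), Lamc3 (5.53, SE 0.97) and Lamb1 (1.85, SE 0.49). Against myeloid-like cells, 2 of 13 were higher in glioma, below the 24.4% of all genes, Agrn (1.07, SE 0.29) and Lama4 (1.32, SE 0.49).

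Of 25 enzymes that modify, fold and cross-link collagen, 4 were higher in endothelial-like cells than in glioma, near the 13.7% of all genes, and Pcolce2, an enhancer of procollagen cleavage, was lower (−2.61, SE 0.56). Serpinh1, the chaperone of procollagen, stood at 4.40 and 3.47 against 0.357 and 0.528 (3.32, SE 0.50, edgeR adjusted p = 0.000734), Plod1, a lysyl hydroxylase, at 1.47 and 0.705 against 0.264 and 0.376 (1.81, SE 0.36), and Crtap, part of the prolyl 3-hydroxylase complex, at 0.596 and 0.279 against 0.182 and 0.115 (1.65, SE 0.31). The fourth was Colgalt1 (1.08, SE 0.24), a collagen galactosyltransferase.

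In mural-like cells, 7 of 24 enzymes were higher than in glioma, where 6.99% of all genes were, led by Pcolce at 3.6 and 3.08 against 0.0197 and 0.117 (5.46, SE 0.56), the lysyl oxidase Loxl2 at 0.514 (1 UMI) and 1.37 against 0.0387 and 0.0251 (5.32, SE 0.70) and Serpinh1 at 8.74 and 11.5 (4.42, SE 0.52). P3h3 (3.41, SE 0.66) had no UMI in mural-like cells of tumor 1. Against endothelial-like cells, 4 of 24 were higher, where 2.33% of all genes were, Loxl2 (6.40, SE 0.97), Pcolce (5.85, SE 0.77), P3h3 (3.79, SE 0.83) and Bmp1 (3.51, SE 0.60), the last a procollagen proteinase. In astrocyte-like cells P4ha3, a prolyl 4-hydroxylase, stood at 0.412 and 0.241 against 0.0465 and 0.0345 (3.06, SE 0.60), Loxl1 was also higher (2.72, SE 0.66) and Pcolce2 lower (−1.64, SE 0.37). Against myeloid-like cells, 8 of 25 were higher in glioma and 6 lower, near the 24.4% and 25% of all genes, and the higher ones were led by Adamts3 (3.74, SE 0.89), Pcolce2 (2.92, SE 0.36), Plod2 (2.15, SE 0.25) and P4ha3 (2.08, SE 0.67). In oligodendrocyte-like cells Pcolce2 (1.33, SE 0.34) and P3h4 (1.11, SE 0.26) were higher than in glioma and Plod2 was lower (−1.11, SE 0.28).

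Receptors and proteases that bind or take up collagen were tested for 11 genes. Of these, 2 were higher and 1 lower in endothelial-like cells, where 13.7% and 12.9% of all genes were, 6 were higher in mural-like cells, where 6.99% were, and 2 were higher and 3 lower in glioma against myeloid-like cells, where 24.4% and 25% were. In endothelial-like cells the integrin chains Itga1 (3.56, SE 0.63) and Itgb1 (1.27, SE 0.19) were higher than in glioma, and Ddr1, a collagen-binding kinase, was lower, at 0.111 and 0.0931 against 0.568 and 0.386 (−2.08, SE 0.41). In mural-like cells the higher ones were led by the uptake receptor Mrc2 at 1.54 (3 UMIs) and 0.368 against 0.00929 and 0.00284 (6.99, SE 0.98), Itga1 (5.34, SE 0.62), Ctsk (4.31, SE 0.74) with no UMI in tumor 1, and Mmp14 (3.02, SE 0.32), and 4 were higher than in endothelial-like cells, where 2.33% of all genes were, Mrc2 (6.71, SE 1.43), Ctsk (4.23, SE 1.06), Mmp14 (2.78, SE 0.37) and Ddr2 (2.39, SE 0.63). Against myeloid-like cells, Lair1, an inhibitory collagen receptor of immune cells, was lower in glioma, at 0.0191 and 0.0276 against 2.91 and 1.64 (−7.37, SE 0.46), as were Mmp14 (−2.45, SE 0.23) and Mmp2 (−1.56, SE 0.43), while Ddr1 (1.96, SE 0.30) and Ddr2 (1.51, SE 0.36) were higher. Oligodendrocyte-like cells had higher Ctsk (4.71, SE 0.63) and Ddr1 (1.55, SE 0.29) and lower Mmp14 (−1.51, SE 0.31) than glioma, and astrocyte-like cells had higher Adgrg1 (1.44, SE 0.33) and Mmp14 (1.07, SE 0.23) and lower Mmp2 (−2.03, SE 0.53), which had 119 and 0 UMIs there.

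Regulators and partners of cartilage collagens followed the glioma cells. Of 13 tested, 10 were higher in EGFP-high glioma than in myeloid-like cells, where 24.4% of all genes were, and Runx3, which is also a factor of immune cells, was lower (−4.99, SE 0.61), and 6 were lower in endothelial-like cells than in glioma, where 12.9% of all genes were. Acan, the large proteoglycan of cartilage, was higher in glioma than in myeloid-like cells by 2.55 on the log2 scale (SE 0.55) and differed by −2.83 (SE 0.81) in endothelial-like cells. Sox6, which acts on Col2a1 with Sox5 and Sox9 in cartilage, stood at 2.21 and 1.22 in glioma against 0.209 and 0.109 in myeloid-like cells (2.60, SE 0.24), and Hapln1, a link protein, at 0.429 and 0.360 against 0.0200 and 0.0493 (2.85, SE 0.69). In endothelial-like cells, Sox5 (−2.73, SE 0.33) and Sox9 (−2.42, SE 0.71) were lower.

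Sox9 did not go with Col2a1 in astrocyte-like cells, where it stood at 3.70 and 1.83 against 1.47 and 0.378 (1.96, SE 0.53, edgeR adjusted p = 0.0379) while Col2a1 stood at 0.203 and 0.439 against 0.477 and 1.19. There, 1 of 13 of the list was higher and 2 were lower, where 6.41% and 4.55% of all genes were, Matn4 (−1.69, SE 0.28) and Sox6 (−1.06, SE 0.23). In oligodendrocyte-like cells 5 of 13 were lower, where 6.89% of all genes were, Hapln1 (−3.09, SE 0.86), Sox5 (−1.92, SE 0.27) and 3110079O15Rik (−1.92, SE 0.54) among them. In mural-like cells 4 of 13 were lower than in glioma, where 4.73% of all genes were, with Sox6 at −4.06 (SE 0.56) and Acan at 0 UMIs in both tumors, and Sox5 was higher than in endothelial-like cells (2.13, SE 0.56).

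Over 14 sums of a tumor and a class, the genes whose log2 levels ran most like Col4a1 among 16366 genes were Serpinh1 (Pearson r = 0.984), Il1r1 (0.983), Nid2 (0.982), Col4a2 (0.980) and Sntb2 (0.979). For Col2a1 they were Dnph1 (0.955), Bricd5 (0.939), Timm50 (0.933), Sim2 (0.915) and Col9a3 (0.914). The sums share animals and libraries, and these values are descriptions.

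Of the 44 members, 32 entered the test of at least 1 comparison after the filter on low counts. Of these, Col1a1, Col4a4, Col6a1, Col6a2, Col14a1 and Col27a1 did not pass in any of the 6 comparisons. Col27a1, a fibrillar chain, stood between 0.0414 and 0.432 UMIs per 10000 in the classes other than mural-like cells, and Col6a1 and Col6a2, chains of the beaded filaments, at 0.203 and 0.180 and at 0.0781 and 0.0571 in EGFP-high glioma. The 12 members that were not tested were Col24a1, Col19a1, Col22a1, Col6a4, Col6a5, Col6a6, Col8a2, Col10a1, Col13a1, Col17a1, Col25a1 and Col26a1. In EGFP-high glioma the highest of these was Col19a1, at 0.0188 in tumor 1, and Col6a4, Col6a5, Col8a2, Col10a1 and Col17a1 stayed below 0.001 in both tumors.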

How the data were processed

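Single cells from 2 mouse tumors were profiled with the Single Cell 3′ Library Kit V2. The authors aligned reads to mm10 with Cell Ranger 4.0.0, per the labels, and deposited raw UMI counts per gene and barcode. From these counts, barcodes under 500 genes, with 20% or more mitochondrial or 5% or more hemoglobin UMIs were removed. The automatic Scrublet threshold was unusable, so the highest doublet scores were removed (1636 and 2766 barcodes), 11.4% and 14.9% of all. Classes were gated on raw marker UMIs. UMIs were summed per class and tumor and tested with edgeR 4.0.16 (quasi-likelihood, TMM, filterByExpr) with the tumor as a block, and Benjamini-Hochberg adjustment covered every gene tested. DESeq2 1.42.0 was an alternative. Sums of at least 10 cells gave 12 sums, 14006 genes and 5 residual degrees of freedom. Comparisons with mural-like cells used a minimum of 5 cells, added after the cells had been counted (14 sums, 13243 genes). Each library is 1 animal, and deviations of its classes correlated at r of 0.375 to 0.684 in all 15 class pairs. With 1 library per tumor and the tumor as a block, p-values rest on how class differences varied between these 2 libraries only. That spread was shared by all classes of a fit. Between tumors, genes with at least 50 UMIs over both were compared by fold, with no test.

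Collagens were named with values if they had at least 1 UMI per 10000 in both tumors of a class, if they were among the 10 with the largest log2 fold change that passed a test in 1 direction in both tumors, or if they were past 4-fold between tumors. Of each other list, the 4 with the largest change were named per comparison, and for Col4a1 and Col2a1 the 5 genes of highest correlation of log2(UMIs per 10000 + 1). Further members and list genes were named after their values were seen. The members, marker lists and gene lists were chosen with earlier results of these data known. Gene positions are from GENCODE vM21. Scripts used Python 3.11.15, scanpy 1.11.5 and R 4.3.3. The edgeR fit was tried on simulated counts for endothelial-like cells against EGFP-high glioma.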

Additional observations from a re-analysis of the deposited data

Results flagged for a closer look

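For several members, the ratio of levels between classes lay above 1 in 1 tumor and below 1 in the other. With 1 library per tumor, none of these differences was tested.

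Most arose between glioma-marker cells of low EGFP and EGFP-high glioma cells. The low-to-high ratio in tumor 1 and in tumor 2 was 0.178 and 2.76 for Col2a1, 0.0686 and 2.18 for Col9a1, 0.190 and 2.30 for Col9a2, and 0.227 and 2.22 for Col9a3. It was 0.313 and 2.00 for Col11a1, 0.173 and 2.01 for Col11a2, and 0.268 and 1.08 for Col16a1. For the beaded filament chains it was 0.112 and 1.41 for Col6a1, 0.176 and 1.26 for Col6a2, and 0.170 and 1.21 for Col6a3. Col4a2 gave 0.198 and 1.38, Col20a1 0.0922 and 1.24, and Col27a1 0.339 and 1.47. Col19a1 went the other way, at 2.90 and 0.364.

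In oligodendrocyte-like cells over EGFP-high glioma, Col6a2 gave 1.65 and 0.151 and Col20a1 gave 0.718 and 1.34. In EGFP-high glioma over myeloid-like cells, Col15a1 gave 0.762 and 1.76.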

How the results depend on the processing

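The fit without the replicate block of the tumor, which ignores that classes share an animal, called fewer collagens: 1 for mural-like against endothelial-like, 6 for endothelial-like, 8 for mural-like, 1 for astrocyte-like and 0 for oligodendrocyte-like cells against glioma, and 4 for glioma against myeloid-like cells. With no filter on low counts the calls were 13 for mural-like against endothelial-like, 21 for astrocyte-like, 10 for oligodendrocyte-like and 20 for myeloid-like cells. For oligodendrocyte-like cells, 1 collagen was called without doublet removal and 4 with 1 more marker in every gate. Between tumors, 1 more marker left 1 collagen past 4-fold and a minimum of 200 UMIs left 0. The summed collagen level of EGFP-high glioma was 10.3 with 1 more marker and 10.3 without doublet removal, and that of astrocyte-like cells 4.86 without doublet removal (means of both tumors). Doublets left in moved myeloid-like cells more, from 2.92 and 1.36 to 3.92 and 2.33 in tumor 1 and tumor 2, and oligodendrocyte-like cells from 4.51 to 5.93 in tumor 1. With 1 more marker in every gate, oligodendrocyte-like cells stood at 3.76 and 4.91, against 4.51 and 6.13. Without vascular cells of high EGFP, Col28a1 reversed to a fitted log2 fold change of −9.72 in endothelial-like cells, which then held 0 UMIs of it. For the other changes the cause was not tested. The 5 mural-like cells of tumor 1 limit the precision of the mural comparisons, and 1 library per tumor limits every comparison.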
